A study of Homo sapiens with 5 samples.

Results

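Imprinted genes are transcribed mainly from the copy inherited from 1 parent, and 10 of them were followed here by gene symbol across 5 RNA libraries of HEK293T cells, a human embryonic kidney line. The genes were MEST, PEG10, PEG3, H19, SNRPN, NNAT, SGCE, CDKN1C, PHLDA2 and NDN, and 7 of the 10 had a read in at least 1 library, among 19716 genes with a read. Cells received 1 ug of plasmid with X-tremeGENE 9, and RNA was taken after 48 h. In 4 groups the plasmids encoded 5 uPA sgRNAs together with 1 fusion. In dCas9-BFP-DNMT1 the partner was the catalytic domain of DNMT1, the maintenance methyltransferase. In dCas9-BFP-DNMT3A and in dCas9-BFP-DNMT3B it was that of a de novo methyltransferase. The dCas9-BFP-EGFP fusion carried EGFP, a green fluorescent protein without methyltransferase activity. dCas9 is a Cas9 that binds DNA without cutting it, and BFP is a blue fluorescent protein used for sorting. The control received pUC19, a plasmid without dCas9 or sgRNA. Each group was 1 library, the guides were designed against the uPA promoter, and the labels describe sorting of BFP-positive cells without saying how pUC19 cells, which lack BFP, were handled. Below, a library is called by its partner (DNMT1, DNMT3A, DNMT3B, EGFP) or as pUC19.

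At an imprinted locus, DNA methylation laid down in the egg or the sperm marks a control region on 1 parental copy. The mark is copied at each cell division by DNMT1 and sets which copy is transcribed, either at a promoter, through an insulator bound by CTCF, or through a long non-coding RNA that silences its neighbours. MEST, PEG10, SGCE, PEG3, SNRPN, NDN and NNAT are known as paternally expressed genes, and H19, CDKN1C and PHLDA2 as maternally expressed ones. The libraries measured the total RNA of a gene, so the 2 parental copies were not distinguished and methylation was not measured, and fewer cells expressing a gene cannot be told apart from less RNA per cell.

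The promoter windows below, from 250 bases before to 50 bases after an annotated start site, show how far the CpG content of these genes ranged. RefSeq windows (GRCh38.p14) were matched for 4 of the 10 genes, and for each gene the window with the most CpGs was taken. Those of MEST (chr7:130491835-130492134, plus strand) and NDN (chr15:23687256-23687555, minus strand) are shown because their genes had at most 3 reads in any library, and that of H19 (chr11:2001217-2001516, minus strand) because H19 was detected in every library and its window held the fewest CpGs of the 4 chosen. Capitals mark CpG dinucleotides.
MEST: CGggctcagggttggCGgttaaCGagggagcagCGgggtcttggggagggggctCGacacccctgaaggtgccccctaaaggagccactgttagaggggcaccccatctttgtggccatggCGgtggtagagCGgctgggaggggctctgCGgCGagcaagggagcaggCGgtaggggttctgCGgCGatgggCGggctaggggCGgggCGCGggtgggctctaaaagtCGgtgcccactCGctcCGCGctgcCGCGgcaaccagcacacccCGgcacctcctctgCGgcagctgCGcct
NDN: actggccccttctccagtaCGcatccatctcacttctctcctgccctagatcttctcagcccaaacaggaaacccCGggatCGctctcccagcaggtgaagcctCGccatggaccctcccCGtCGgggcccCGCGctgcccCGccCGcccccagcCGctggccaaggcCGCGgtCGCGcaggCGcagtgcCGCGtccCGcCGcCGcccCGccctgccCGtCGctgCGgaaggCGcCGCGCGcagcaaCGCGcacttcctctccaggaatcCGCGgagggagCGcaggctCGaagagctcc
H19: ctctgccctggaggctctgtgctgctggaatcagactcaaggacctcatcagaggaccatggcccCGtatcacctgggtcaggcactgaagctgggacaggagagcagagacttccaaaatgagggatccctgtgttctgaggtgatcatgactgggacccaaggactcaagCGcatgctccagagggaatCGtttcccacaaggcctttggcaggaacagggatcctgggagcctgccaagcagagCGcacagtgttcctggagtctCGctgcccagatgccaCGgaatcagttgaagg
The windows held 25 CpGs at MEST, 35 at NDN and 6 at H19, and the fourth, at SNRPN, held 18. The median over 35116 promoters, which were not selected for CpGs, was 14. The windows not chosen held 2 to 11 CpGs at SNRPN and 13 to 22 at MEST, so the place of these genes against the median depends on the choice. SGCE, PHLDA2, CDKN1C, PEG10 and NNAT had no matched window, so a relation of CpG content to RNA level was not tested. An annotated start site need not be that of the RNA counted here. TGCCGC, the core of the methylated site read by the zinc finger protein ZFP57, was found on either strand in 3 of the 4 genes (7 of their 11 windows) and in 16.7% of all promoters. Windows of MEST overlap, so a match can be counted more than once. The share of all promoters is per window and was not matched for CpG content, although the motif holds a CpG. A match describes the letters of a window and not a bound site.

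Library totals ranged from 26250000 to 36140000 reads assigned to genes (rounded to the nearest 10000). A level is given as TPM, the reads per transcript length scaled to a fixed sum in each library, and intervals are exact 95% intervals that cover the counting of reads alone. Levels of 3 reads or fewer are at the detection limit, which was 0.0830 to 0.114 reads per 1000000. The HEK293T markers were present at a summed 866 to 1322 TPM, with the highest sum in pUC19. Single markers went both ways. IRS4 (396 TPM in pUC19, 66.3 to 76.5 in the fusions), NEFM and NEFL were highest in pUC19. KRT8, VIM and INA were lowest there, and KRT18, PAX2 and SALL1 lay between. Across the libraries, the sums over the fibroblast, endothelial, leukocyte and hepatocyte markers were 4.37 to 8.68, 0.579 to 0.892, 0.923 to 1.39 and 0.104 to 1.55 TPM. Of these 13 markers 10 had a read, led by COL1A1 at 3.87 to 7.97 TPM, above CDKN1C, H19 and PEG10 in each library, and COL1A2, CDH5 and CD3E had none. The part of other cells in the results was not tested.

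SGCE, which encodes the epsilon-sarcoglycan of the dystrophin-associated complex, was the most abundant of the 10 genes. It reached 18.0 TPM in pUC19 (512 reads), 13.3 in EGFP (267 reads), 15.4 in DNMT1 (340 reads), 20.5 in DNMT3A (467 reads) and 19.6 in DNMT3B (393 reads). EGFP was lowest and DNMT3A highest, and SGCE stood above the median gene with a read (9.47 to 11.3 TPM) in each library. PEG10, a retrotransposon-derived gene with a role in the placenta, starts 247 bases from SGCE in the opposite direction, and both belong to a shared imprinted domain on chromosome 7 (PEG10 94285637 to 94299007 on the plus strand, SGCE 94153516 to 94285884 on the minus strand, GRCh37). PEG10 reached only 0.274 TPM in pUC19 (29 reads), 0.267 in EGFP (20 reads), 0.171 in DNMT1 (14 reads), 0.320 in DNMT3A (27 reads) and 0.469 in DNMT3B (35 reads). The level per length of SGCE was therefore 41.7 to 90.2 times that of PEG10, although the start sites are close.

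PHLDA2, a growth-restraining protein of the placenta, was the next in level. It reached 5.62 TPM in pUC19 (84 reads), 2.27 in EGFP (24 reads), 6.03 in DNMT1 (70 reads), 6.45 in DNMT3A (77 reads) and 6.35 in DNMT3B (67 reads). The EGFP value stood below the other 4, which lay close together. CDKN1C, the cyclin-dependent kinase inhibitor p57, starts 43645 bases from PHLDA2 in the same domain of chromosome 11 (CDKN1C 2904443 to 2907005, PHLDA2 2949503 to 2950650, both on the minus strand). CDKN1C reached 3.20 TPM in pUC19 (99 reads), 2.46 in EGFP (54 reads), 3.12 in DNMT1 (75 reads), 1.94 in DNMT3A (48 reads) and 1.92 in DNMT3B (42 reads). Here the 2 libraries of the de novo methyltransferases were the lowest, and the order of libraries differed from that of PHLDA2.

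H19, an abundant fetal long non-coding RNA from the maternal chromosome 11 (2016396 to 2025782, minus strand), was low in these cells. It reached 0.810 TPM in pUC19 (30 reads), 0.381 in EGFP (10 reads), 0.800 in DNMT1 (23 reads), 0.710 in DNMT3A (21 reads) and 0.918 in DNMT3B (24 reads). The intervals of the 5 libraries overlapped. NNAT, a membrane proteolipid of developing neurons that lies in an intron of BLCAP on chromosome 20 (36149608 to 36152092, plus strand), had 8 reads in pUC19, 5 in EGFP, 1 in DNMT1, 8 in DNMT3A and 4 in DNMT3B. MEST, a hydrolase-like protein of mesoderm (chromosome 7, 130126012 to 130146306, plus strand), had 2, 1, 3, 1 and 0 reads in the same order. Neither was abundant enough for its order across libraries to be read.

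PEG3, a zinc finger protein, SNRPN, a spliceosomal protein, and NDN, a MAGE family protein of neurons, had no row in any library and were set to 0 reads. Whether the authors' reference held these genes was not checked. If it did, the limit of 3 reads allows up to 0.114 reads per 1000000 in the shallowest library (exact 95% upper bound 0.141). PEG3 lies on chromosome 19 (57321445 to 57352096, minus strand), and SNRPN (25068784 to 25223870, plus strand) and NDN (23930547 to 23932452, minus strand) on chromosome 15. For SNRPN the 0 has a further limit. The authors kept reads that mapped uniquely, and 39.1% of the 30-base windows of SNRPN transcripts also occur in other annotated genes, foremost SNURF, which shares its transcript and also had no row. The share was 13.2% for PEG3, with ZIM2 as the only partner, 8.33% for MEST, with pseudogenes, and 3.14% for NDN, so a lack of RNA and a loss of shared reads cannot be told apart for SNRPN. SGCE, CDKN1C, PEG10, NNAT, H19 and PHLDA2 shared at most 2.07%. These shares count windows on the strand of the transcript alone, so overlap with genes on the opposite strand is not in them.

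**Figure D1:**
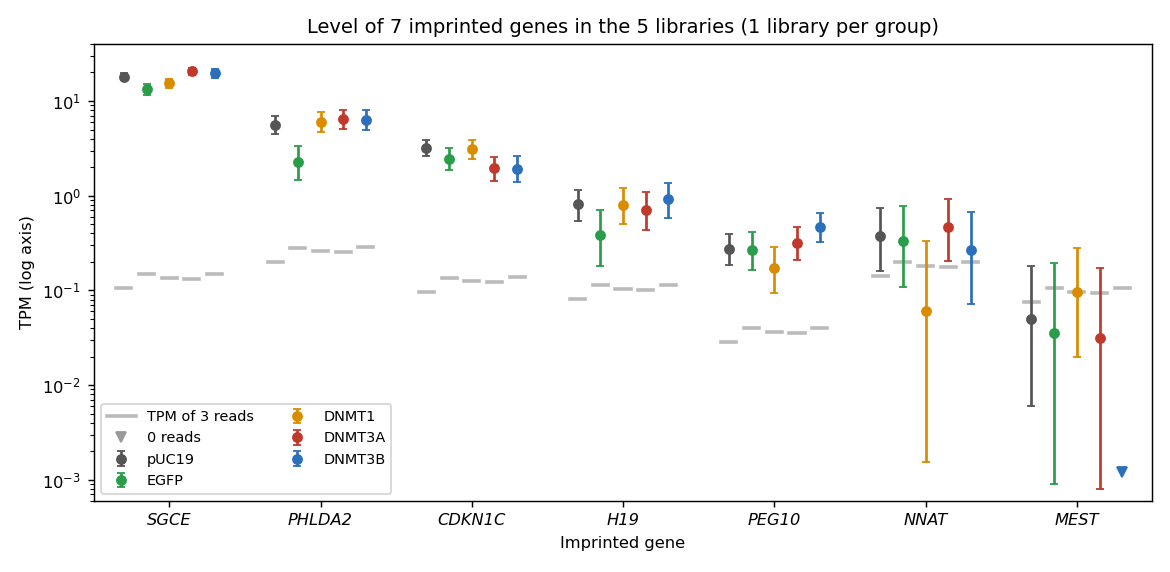
TPM (log axis) of the 7 imprinted genes with reads in each library, colored by library; bars are exact 95% counting intervals, gray ticks the TPM of 3 reads, and the triangle a library with 0 reads. SGCE lay at 13.3 to 20.5 TPM in the 5 libraries, PHLDA2 in EGFP (2.27 TPM) stood below the other 4 libraries (5.62 to 6.45 TPM), and MEST lay at or below the level of 3 reads.

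The first question was whether these genes changed in cells that received a fusion instead of pUC19. Reads were compared between 2 libraries at a time with an exact binomial test (two-sided, conditional on both totals), with Benjamini-Hochberg adjustment across every gene read in the pair. A call needed an adjusted p of at most 0.001 together with a fold of at least 2 on TPM + 0.1, a pseudocount that understates the change of low genes. The test compares 2 libraries and takes no spread between transfections into account. Of the 7 genes tested, 0 were called against pUC19 in DNMT1 (5.16% of all genes tested were called), 0 in DNMT3A (9.36%) and 0 in DNMT3B (8.76%), and PHLDA2 alone was called in EGFP (5.70%).

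PHLDA2 in EGFP was 0.393 times its share of reads in pUC19 (exact 95% interval 0.239 to 0.626), at log2 -1.27 and adjusted p 6.6e-05. In the methyltransferase fusions it was 1.09 times (0.780 to 1.51), 1.13 times (0.815 to 1.55) and 1.06 times (0.758 to 1.48) the pUC19 share in DNMT1, DNMT3A and DNMT3B. SGCE in EGFP passed the p but not the fold, at 0.718 times (0.617 to 0.834), log2 -0.44 and adjusted p 2.9e-05. CDKN1C was 0.595 times (0.413 to 0.849) its pUC19 share in DNMT3A and 0.565 times (0.384 to 0.818) in DNMT3B, with adjusted p-values of 0.0065 and 0.0037, which miss the threshold for a call. In DNMT1 the ratio of CDKN1C was 0.988 (0.722 to 1.35). H19 in EGFP was 0.459 times its pUC19 share (0.20 to 0.965), from 10 reads, at an adjusted p of 0.070. PEG10 in DNMT3B was 1.61 times its pUC19 share (0.954 to 2.72) at an adjusted p of 0.12.

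Against pUC19, the sign of the fold in EGFP was the same for the genes tested, although PHLDA2 was the only call among them. All 7 had a negative log2 fold change in EGFP, with a median of -0.36. MEST (1 against 2 reads) and NNAT (5 against 8 reads) had too few reads for their sign to be read. PEG10 was near equal (0.267 against 0.274 TPM). The 7 genes share the same 2 libraries and are not replicates. In this pair the median over all genes tested was -0.0032 and 49.8% of them were positive. The direction was not particular to these genes. Of 32 other imprinted genes tested in this pair, 21 were negative, with a median of -0.17. In the same domains 11 of 14 were negative (median -0.26), and in other domains 10 of 18 (median -0.06). Of the 6 genes with reads in all 5 libraries, SGCE, PHLDA2 and H19 were lowest in EGFP (3 of 6), PEG10 and NNAT in DNMT1 and CDKN1C in DNMT3B. EGFP was the lowest library for 17.9% of 28 other imprinted genes and for 14.5% of the 16688 such genes in all. In DNMT1, DNMT3A and DNMT3B the medians of the 7 genes against pUC19 were -0.03, 0.17 and 0.12, beside -0.15, -0.06 and -0.05 over all genes tested. The other imprinted genes were mostly negative against pUC19 in these libraries too. The counts were 24 of 32 in DNMT1 (median -0.31), 20 of 32 in DNMT3A (-0.13) and 21 of 33 in DNMT3B (-0.14). Over all genes tested 38.9%, 46.3% and 46.7% were positive in the same order. EGFP was also the shallowest library (26250000 reads), and GC content is high in PHLDA2, H19 and CDKN1C, above that of 91.7%, 93.2% and 93.8% of genes. The part of depth in these values was not tested. After a correction of the fold for GC content and length, PHLDA2 in EGFP stood at -1.14 against pUC19, past the fold for a call. The p-value was not recomputed for this correction.

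**Figure D2:**
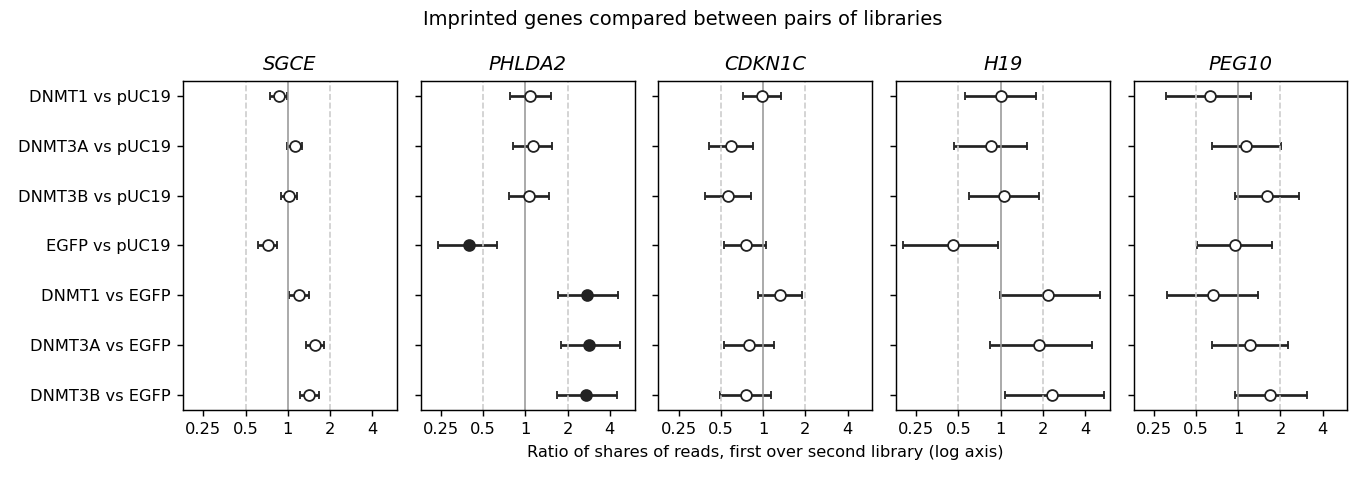
Ratio of a gene's share of reads in the first over the second library (log axis) for 5 imprinted genes in 7 pairs of libraries; bars are exact 95% intervals, filled points are called, the solid line marks equal shares and dashed lines a fold of 2. The filled points are PHLDA2 in the pairs that hold EGFP, at 0.393 against pUC19 and 2.70 to 2.86 in the methyltransferase fusions over EGFP.

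The next question was whether the fusion partner made a difference under the same guides, with EGFP as the reference. In the paper, CpG methylation at the uPA promoter rose with the DNMT3A and DNMT3B fusions but not with the DNMT1 or EGFP fusion. The paper cites earlier reports in which the catalytic domain of DNMT1, unlike those of DNMT3A and DNMT3B, was not active. PHLDA2 was the only called gene of the 7 in each pair: higher in DNMT1 (log2 1.37, adjusted p 3.6e-05, beside 1.44% of all genes called), in DNMT3A (log2 1.47, adjusted p 7.6e-06, beside 3.97%) and in DNMT3B (log2 1.45, adjusted p 5.2e-05, beside 3.50%). The ratios of shares were 2.76 (1.72 to 4.59), 2.86 (1.79 to 4.73) and 2.70 (1.67 to 4.50). These 3 calls and the call against pUC19 share the EGFP library with its 24 reads, and PHLDA2 was called in 0 of the 3 pairs without it. With an assumed coefficient of variation of 0.2 between transfections (edgeR exact test), the adjusted p of PHLDA2 was 0.25 in EGFP against pUC19 and 0.23 to 0.84 against EGFP, so that 0 of the 10 genes were called in any of the 4 pairs.

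SGCE was 1.56 times (1.34 to 1.82) its EGFP share in DNMT3A and 1.42 times (1.21 to 1.67) in DNMT3B, with log2 fold changes of 0.63 and 0.56 and adjusted p-values of 2.1e-08 and 3.1e-05, both under a fold of 2. In DNMT1 it was 1.21 times (1.02 to 1.42) at an adjusted p of 0.058. H19 was 2.18 (0.997 to 5.13), 1.87 (0.844 to 4.45) and 2.32 (1.07 to 5.43) times its EGFP share in DNMT1, DNMT3A and DNMT3B, with adjusted p-values of 0.11, 0.22 and 0.063. CDKN1C did not reach the threshold, and its ratios to EGFP were 1.32 (0.915 to 1.90), 0.793 (0.526 to 1.19) and 0.752 (0.490 to 1.15).

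To set these differences against a spread between libraries, the counts were also fitted with the edgeR quasi-likelihood F-test, in which the fusions, although different constructs, supply the spread. In the fit of the 4 fusions against pUC19, 0 of the 5 genes that passed the filter on low counts changed at an adjusted p under 0.05, beside 0.737% of all genes. None of the 5 had an unadjusted p under 0.05, and DESeq2 called 0. The log2 fold changes were -0.02 ± 0.29 (SE) for SGCE, -0.03 ± 0.54 for PHLDA2, -0.38 ± 0.41 for CDKN1C, -0.15 ± 0.60 for H19 and 0.20 ± 0.59 for PEG10. MEST and NNAT did not pass the filter, which left 5 of the 10 genes without a fitted value.

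In the fit of DNMT3A and DNMT3B against DNMT1 and EGFP, 0 of the same 5 genes changed, beside 11.0% of all genes, and DESeq2 called 0 of the 3 for which it gave an adjusted p. SGCE was the single gene with an unadjusted p under 0.05, at log2 0.42 ± 0.19 (adjusted p 0.17). PEG10 stood at 0.80 ± 0.43 (adjusted p 0.25), PHLDA2 at 0.54 ± 0.44 (0.45), H19 at 0.37 ± 0.49 (0.65) and CDKN1C at -0.59 ± 0.32 (0.25). The values of PHLDA2 and SGCE depended on which library stood on the other side. Without DNMT1, EGFP alone was the reference and its spread was assumed, and PHLDA2 stood at 1.51 and SGCE at 0.61. Without EGFP the value was -0.04 for PHLDA2 and 0.26 for SGCE. SGCE kept its direction with each fusion left out.

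**Figure D3:**
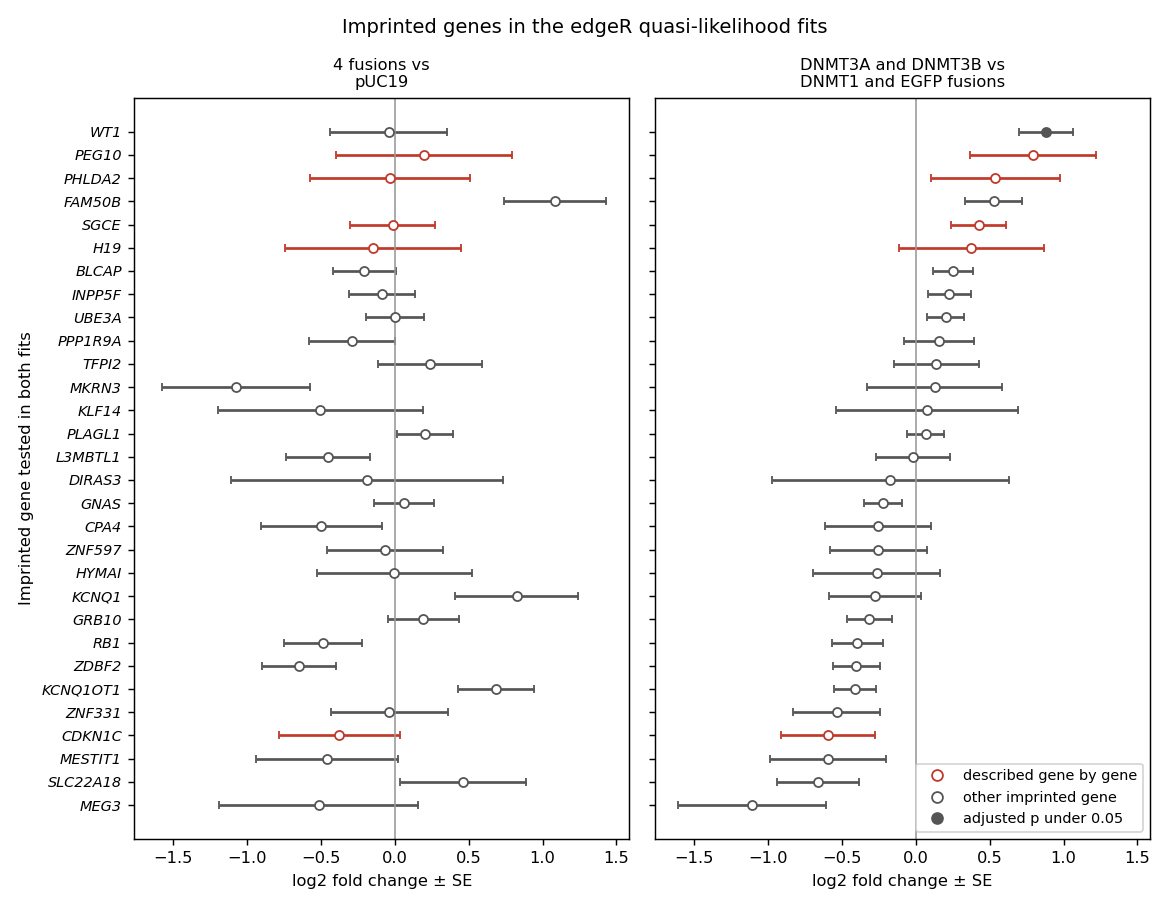
Log2 fold change ± SE in the edgeR quasi-likelihood fits for the 30 imprinted genes tested in both, 5 of them described gene by gene (red) and 25 others (gray); filled points have an adjusted p under 0.05. WT1 at 0.88 in the fit between fusions is the filled point, and the 5 red genes lie between -0.59 and 0.80 there.

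A wider list of 39 genes known as imprinted in at least some tissues, 20 from the same domains and 19 from others, was described in the same way. Of these, 34 had a read in some library and 28 in all 5, and 18 reached 1 TPM in all 5. The fit of the 4 fusions against pUC19 called 0 of 25 tested (3 had an unadjusted p under 0.05, and DESeq2 called 1, FAM50B), with a median log2 fold change of -0.07 beside 0.03 over all genes. The fit between fusions called 1 of 25 tested, beside 11.0% of all genes, with a median of -0.22 beside -0.01 over all genes. The call was WT1, a zinc finger transcription factor of the kidney, at 0.88 ± 0.18 (adjusted p 0.019). WT1 stood at 9.19 TPM in pUC19, 6.24 in EGFP, 5.66 in DNMT1, 12.1 in DNMT3A and 10.6 in DNMT3B. The call on WT1 was lost without DNMT3A (adjusted p 0.26) or without DNMT3B (0.13), fits that called 18 and 53 genes in all, in place of 1694.

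In the pairs, 4 further imprinted genes were called, and they are named after their values were seen. The counts were 1 of 32 tested in DNMT1, 2 of 32 in DNMT3A, 1 of 33 in DNMT3B and 0 of 32 in EGFP against pUC19, and 1 of 31 in DNMT1, 0 of 31 in DNMT3A and 0 of 31 in DNMT3B against EGFP. These stand beside 5.16%, 9.36%, 8.76%, 5.70%, 1.44%, 3.97% and 3.50% of all genes in the same order. KCNQ1, a potassium channel, was higher in DNMT1 than in pUC19 (183 against 102 reads, log2 1.17, adjusted p 1.2e-11). FAM50B, a retrogene, was higher than in pUC19 in DNMT3A (555 against 248 reads, log2 1.48, adjusted p 1.7e-42) and in DNMT3B (372 reads, log2 1.08, adjusted p 7.8e-17). ZDBF2 was lower in DNMT3A than in pUC19 (632 against 1620 reads, log2 -1.02, adjusted p 2.6e-59), close to the fold of 2. DIRAS3, a small GTPase, was higher in DNMT1 than in EGFP, where it had 2 reads against 28 (ratio 13.3, interval 3.34 to 115, adjusted p 8.8e-06). At a coefficient of variation of 0.2 none of these was called. With a pseudocount of 1 TPM, KCNQ1 (log2 0.90) and ZDBF2 (-0.90) came under the fold of 2, and so did ZDBF2 after TMM scaling (-0.9998) and after the GC and length correction (-0.69).

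**Figure D4:**
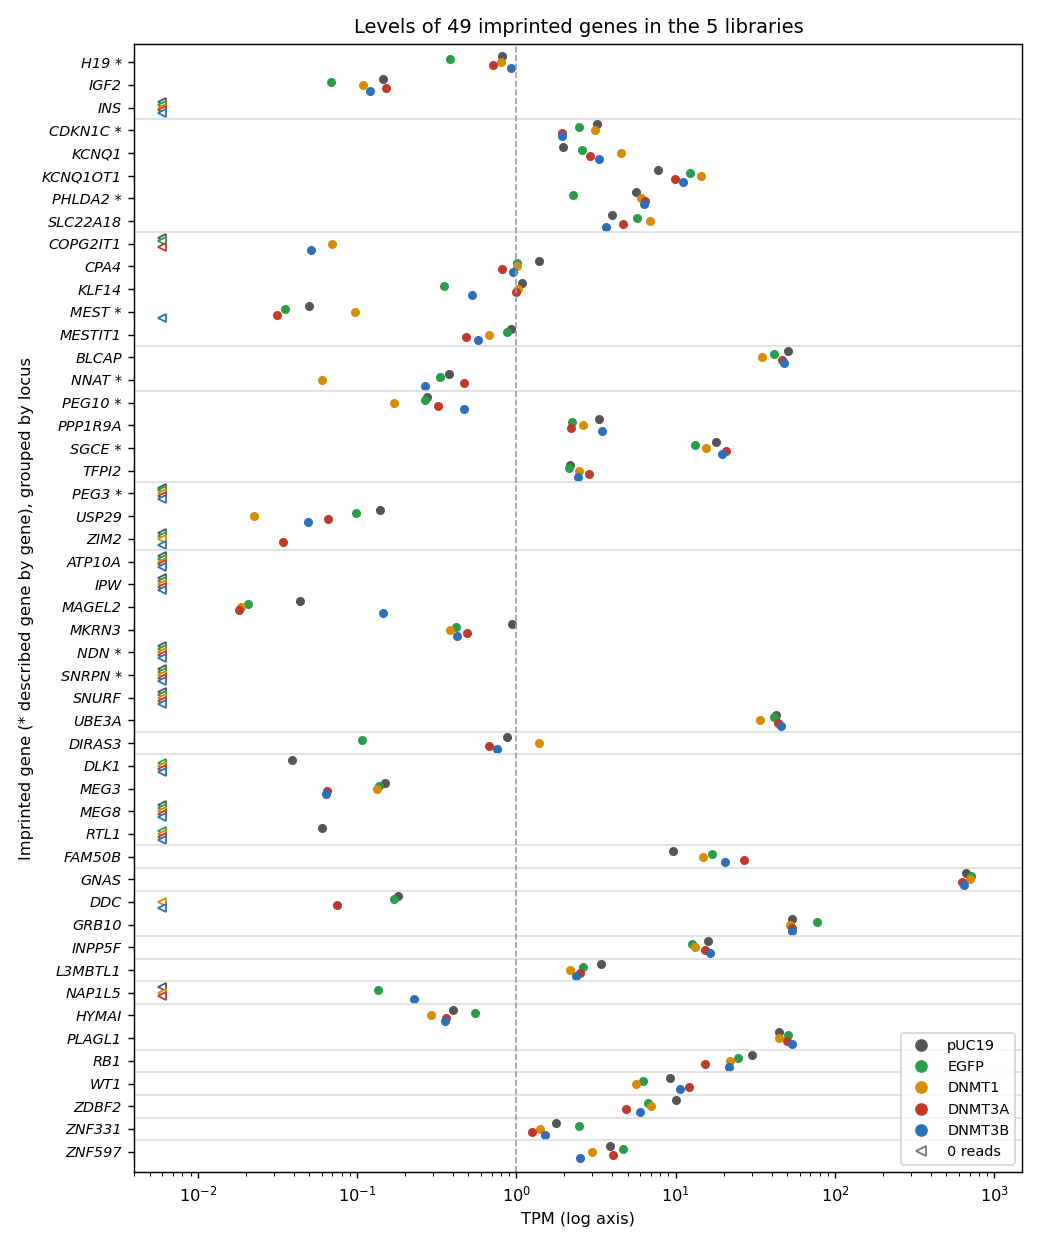
TPM (log axis) of 49 imprinted genes in the 5 libraries, grouped by locus with lines between loci; filled points are libraries with reads, open triangles libraries with 0 reads, and the dashed line marks 1 TPM. Levels ran from no read in any library (PEG3, SNRPN and NDN among them) to 625 to 715 TPM for GNAS.

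The domains of the 10 genes differed in what else was transcribed. Beside PHLDA2 and CDKN1C, the antisense RNA KCNQ1OT1, the long non-coding RNA whose promoter holds the control region of that domain, had 11336 to 16378 reads at 7.76 to 14.4 TPM, with pUC19 lowest and DNMT1 highest. Its fold against pUC19 was 1.85 in DNMT1 and 1.28 to 1.59 in the other fusions, under the fold of 2, and in the fits it stood at 0.68 ± 0.26 (adjusted p 0.21) for the fusions against pUC19 and at -0.41 ± 0.14 (0.095) between fusions. KCNQ1OT1 lies within KCNQ1 on the other strand, and as no strand setting is given in the sources used here, the reads of both cannot be told apart. IGF2, the growth factor gene paired with H19, had 4 to 12 reads. In the domain of SNRPN and NDN, UBE3A, a ubiquitin ligase, reached 33.9 to 45.7 TPM, whereas MAGEL2 had 1 to 7 reads and MKRN3 13 to 41. BLCAP, the host gene of NNAT, reached 34.8 to 50.9 TPM. MESTIT1, antisense to MEST, had 20 to 48 reads, beside 0 to 3 for MEST. The same limit of strand holds for this pair and for PEG10 and SGCE at their start sites, which overlap on opposite strands. Reads covered only 6.69% to 13.8% of the MESTIT1 transcript, 1.38% to 2.92% of that of IGF2 and 25.5% to 40.2% of that of KCNQ1OT1. For UBE3A and BLCAP the coverage was 94.5% or more in each library.

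The 15 neighbouring genes listed as not imprinted were all at 1 TPM or more in every library. The fit between fusions called 2 of 15, a share near the 11.0% of all genes. They were CYFIP1, a regulator of actin and translation at the edge of the chromosome 15 domain, at -0.81 ± 0.12 (adjusted p 0.0066), and TSSC4, near CDKN1C and PHLDA2, at 0.77 ± 0.14 (0.011), and the fit against pUC19 called 0. Both calls were lost without DNMT3A or without DNMT3B. Of 8 regulators of imprints, 7 were tested in the fit between fusions and 1 was called, beside 11.0% of all genes. SETDB1, a histone H3 lysine methyltransferase, stood there at 0.45 ± 0.12 (0.043). This call was lost without the filter on low counts (0.062), without DNMT3A and without DNMT3B. TRIM28, its partner, stood at 571 to 844 TPM, CTCF at 82.6 to 142 and UHRF1, which guides DNMT1 to newly copied DNA, at 114 to 161. ZFP57, which binds methylated TGCCGC, had 2 reads in DNMT1 and 0 in the other libraries, while ZNF445, a second zinc finger protein of imprints, reached 16.9 to 21.2 TPM.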

How the data were processed

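RNA was measured in 5 libraries, 1 per group, grouped by the sample titles and the series' design text. The authors selected poly(A) RNA, sequenced fragments on an Ion Proton, aligned clean reads with tmap to RefSeq RNA of hg19 and kept uniquely mapped reads. The deposited read count per gene is whole and not normalized. The deposited TPM were recomputed from the deposited counts and lengths without difference. The deposited coverage, in percent of the transcript, was not used for tests. Genes without a row were set to 0. Rows without a symbol held 0.0054% of reads.

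Pairs were tested by the exact conditional binomial test. The two-sided p was taken by doubling the smaller tail, which was decided after the numbers of calls under it (271 to 1776 genes per pair) and under minimum likelihood (278 to 1793) had both been seen, and no member's call differs between them. edgeR 4.0.16 (R 4.3.3, TMM, filterByExpr) and DESeq2 1.42.0 were used on counts, and the SE of a fit is the log2 fold change over the square root of F. Scripts were tested on simulated counts. The 10 genes and the other lists were chosen with earlier results of these data known. Named beyond them were list members past a fit, or called in at least 3 of the 4 pairs with pUC19, with the largest changes, and 4 imprinted genes called in fewer pairs were named after their values were seen. Positions are GENCODE v44 on GRCh37, and promoters RefSeq on GRCh38.p14. For pairs, the alternatives were minimum-likelihood p-values, TMM scaling, a pseudocount or a minimum of 1 TPM, and an assumed coefficient of variation of 0.2. For fits they were DESeq2, median-ratio size factors, all genes unfiltered and each fusion left out in turn. Both were also corrected for GC content and length by loess (span 0.3), in the pairs for the fold alone, and 89.3% of genes had a GC value.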

Additional observations from a re-analysis of the deposited data

Results flagged for a closer look

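Between the fusions with a de novo methyltransferase and those without, 4 genes of the lists around the 10 imprinted genes differed in the edgeR quasi-likelihood fit, and 0 of the 10 did. WT1 was higher by 0.88, TSSC4 by 0.77 and SETDB1 by 0.45 on the log2 scale, and CYFIP1 stood at -0.81. They were 1 of 25 other imprinted genes tested, 2 of 15 neighbours and 1 of 7 regulators. The background was 11.0% of all genes tested, and the arms hold different constructs rather than replicates.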

How the results depend on the processing

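With a coefficient of variation of 0.2, 0 of the 10 genes were called in EGFP against pUC19 and in DNMT1, DNMT3A and DNMT3B against EGFP, in place of 1 each. The other pair alternatives (pseudocount, TMM scaling, minimum level, GC and length, minimum likelihood) left every count of called members as it was. Of these, the pseudocount and the GC and length correction changed the fold and kept the p-value of the main setting. Minimum likelihood, the minimum level and the coefficient of variation kept the main fold, so their direction could not change. Part of the unchanged values counted below was therefore fixed in advance. Minimum likelihood, added after seeing the data, called DIRAS3 in EGFP against pUC19, where doubling the smaller tail missed at an adjusted p of 0.0010. Leaving out 1 fusion gave 0 members past the fit against pUC19. In the fit between fusions it leaves 1 library in an arm, so passing there (PHLDA2 and SGCE without DNMT1) is not taken as a result. Uncalled values changed sign as follows. Against pUC19, TMM scaling gave H19 0.098 and CDKN1C 0.090 in DNMT1, and the GC and length correction gave PHLDA2 -0.066 in DNMT1 and -0.0014 in DNMT3A, and H19 -0.062 in DNMT3B. That correction gave MEST 0.016 in DNMT3A against EGFP and SGCE 0.17 in the fit against pUC19. In that fit, leave-one-out ranges were -0.079 to 0.37 for PEG10, -0.11 to 0.10 for SGCE (0.0018 without DNMT1), -0.30 to 0.062 for H19 and -0.14 to 0.23 for PHLDA2, and in the fit between fusions -0.10 to 1.09 for H19 and -0.035 to 1.51 for PHLDA2. The causes were not tested. Of 344 recomputed values of the 10 genes, 324 kept their direction and side of the threshold, 4 lost a call, 2 gained one and 14 changed sign.

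No paired analysis was possible because each group is 1 library and the labels carry no replicate numbers. At this depth no difference was detectable for MEST and NNAT, and PEG3, SNRPN and NDN had no counted read.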
